A study of Homo sapiens with 12 samples.

Results

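The genes described here are the NONO family, which comprises NONO, SFPQ and PSPC1, and 6 further components or partners of the paraspeckle, namely NEAT1, MALAT1, RBM14, MATR3, TARDBP and CPSF6. They were taken by gene symbol from the 2 deposited expression tables after these had been joined on the gene identifier. The 9 symbols correspond to 10 gene identifiers, because MATR3 is listed under ENSG00000015479 and again under ENSG00000280987. The 2 tables hold 60623 and 60671 genes, of which 60558 are in both, and all 10 identifiers passed the filter on low counts in both experiments.

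RNA-seq was performed on MDA-MB-231, an established human triple-negative breast cancer (TNBC) cell line. In 1 experiment, cells with knockdown of NONO (NONO-KD) were compared with their own negative control cells (NC), and in the other, cells with knockdown of PKM2 (PKM2-KD) were compared with another NC group. The series' design text gives siRNA as the means of knockdown, and the labels call the control cells wild type. Each of the 4 groups had 3 libraries, so 12 libraries were analysed and no library served both experiments. Nothing in the labels says whether the 3 libraries of a group came from separate cultures, so P values measure the spread between these libraries only. The design asked which transcripts depend on NONO and PKM2, and the comparisons below ask how the partners of NONO itself were expressed after each knockdown.

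Paraspeckles are nuclear bodies built around the long isoform of the noncoding RNA NEAT1. The DBHS proteins NONO, SFPQ and PSPC1 share a pair of RNA recognition motifs, a NOPS domain and a coiled coil, and they pair with one another as homodimers or heterodimers. NONO and SFPQ coat the long NEAT1 and are needed for the body to form, whereas PSPC1 marks the body and is dispensable for its formation. A short NEAT1 isoform arises when the transcript is cleaved and polyadenylated at an early site, a step that the cleavage factor formed by CPSF6 and NUDT21 promotes.

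Depth lay between 19861762 and 20981712 estimated counts per library in the NONO experiment and between 24097948 and 28455268 in the PKM2 experiment, and the 10 identifiers held 0.194% to 0.253% of them. NC library 1 of the NONO experiment and knockdown library 3 of the PKM2 experiment stood farthest from their replicates, so results that rest on them are also given without them. The mesenchymal genes of the cell line were well expressed (VIM had 3810 to 5540 CPM). CDH1 had 0 to 2 counts, ESR1 1 to 11 counts, PGR 0 to 11 counts and the leukocyte gene PTPRC 0 to 5 counts in every library. Other genes listed as low, absent or of other cells had more. ERBB2 had 882 to 1958 counts, GATA3 41 to 176 and EPCAM 32 to 78. The fibroblast gene COL1A1 had 111 to 398 counts and the endothelial gene PECAM1 18 to 62. PKM, which encodes PKM2, fell in the PKM2-KD cells by 3.32 on the log2 scale (SE 0.05, edgeR adjusted P = 7.03e-12).

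NONO mRNA was strongly reduced in the cells in which it was targeted. NONO (ENSG00000147140) lies on the X chromosome at chrX:71283192-71301168 on the plus strand (GENCODE 29, GRCh38), with 15 annotated transcripts. Its level in CPM, the counts of a library scaled to a common total after TMM normalisation, was 391, 358 and 369 in the 3 NC libraries and 61.8, 64.3 and 61.9 in the 3 NONO-KD libraries. Every knockdown library was far below every NC library, and the mean fell from 373 ± 16.7 to 62.7 ± 1.40 (SD, n = 3), which left 16.8% of the NC level. The log2 fold change was -2.57 (SE 0.049, edgeR quasi-likelihood test, adjusted P = 1.17e-10). In TPM, which also divides each count by transcript length, 21.3% of the NC level remained (227 ± 5.95 against 48.5 ± 1.5). In bulk RNA, less NONO mRNA per cell and fewer cells with NONO mRNA cannot be told apart.

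SFPQ and PSPC1, the other two DBHS genes, rose in the same cells. SFPQ (ENSG00000116560, chr1:35176378-35193148, minus strand) encodes the heterodimer partner of NONO. SFPQ had 364, 293 and 304 CPM in the NC libraries and 524, 502 and 495 CPM in the NONO-KD libraries. The groups were well apart, and the log2 fold change was 0.66 (SE 0.070, adjusted P = 4.06e-05), a rise to 158% of NC. PSPC1 (ENSG00000121390, chr13:19674752-19783019, minus strand) encodes paraspeckle component 1. PSPC1 had 139, 117 and 117 CPM in NC and 188, 175 and 172 CPM in NONO-KD cells, again without overlap, and its log2 fold change was 0.52 (SE 0.068, adjusted P = 0.000175). NC library 1 was the highest NC library for both genes, and without it the log2 fold changes were 0.77 and 0.62.

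**Figure D1:**
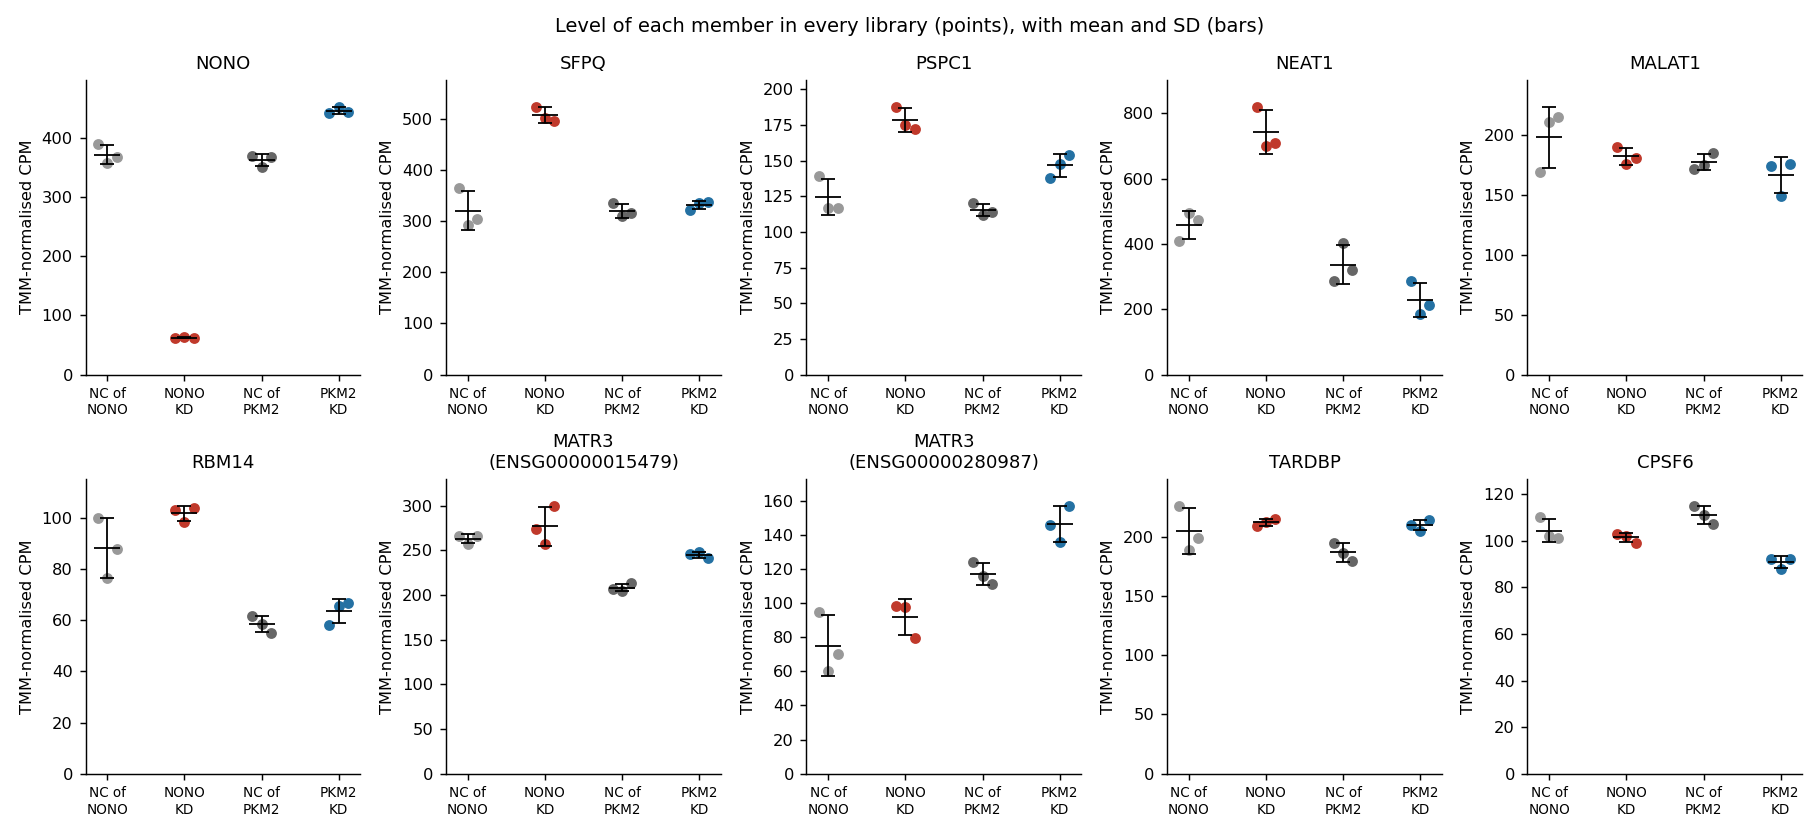
Level of each of the 10 identifiers in every library, as TMM-normalised CPM on linear axes from 0, with NC libraries in grey, NONO-KD libraries in red and PKM2-KD libraries in blue. Points are libraries and bars give the mean and SD of 3. NONO drops to 62.7 CPM only in its own knockdown, where SFPQ, PSPC1 and NEAT1 stand above their NC libraries.

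The gain in SFPQ and PSPC1 was smaller in molecules than the loss of NONO, and the makeup of the family changed. TPM of the 3 genes summed to 520, 478 and 493 in the NC libraries and to 448, 444 and 439 in the NONO-KD libraries. Each knockdown library was below each NC library, and the mean sum of 444 ± 4.55 was 89.3% of the NC sum of 497 ± 21.0. SFPQ and PSPC1 together went from 270 ± 15.1 to 395 ± 4.12 TPM, or to 147% of NC. NONO made up 45.8% ± 0.746 of the family in NC cells and 10.9% ± 0.307 after its knockdown, while the share of SFPQ went from 38.2% ± 0.290 to 65.0% ± 0.612 and that of PSPC1 from 16% ± 0.947 to 24.0% ± 0.808. Both sums reached P = 0.1 in the two-sided exact permutation test, the smallest value that 3 libraries against 3 allow.

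**Figure D2:**
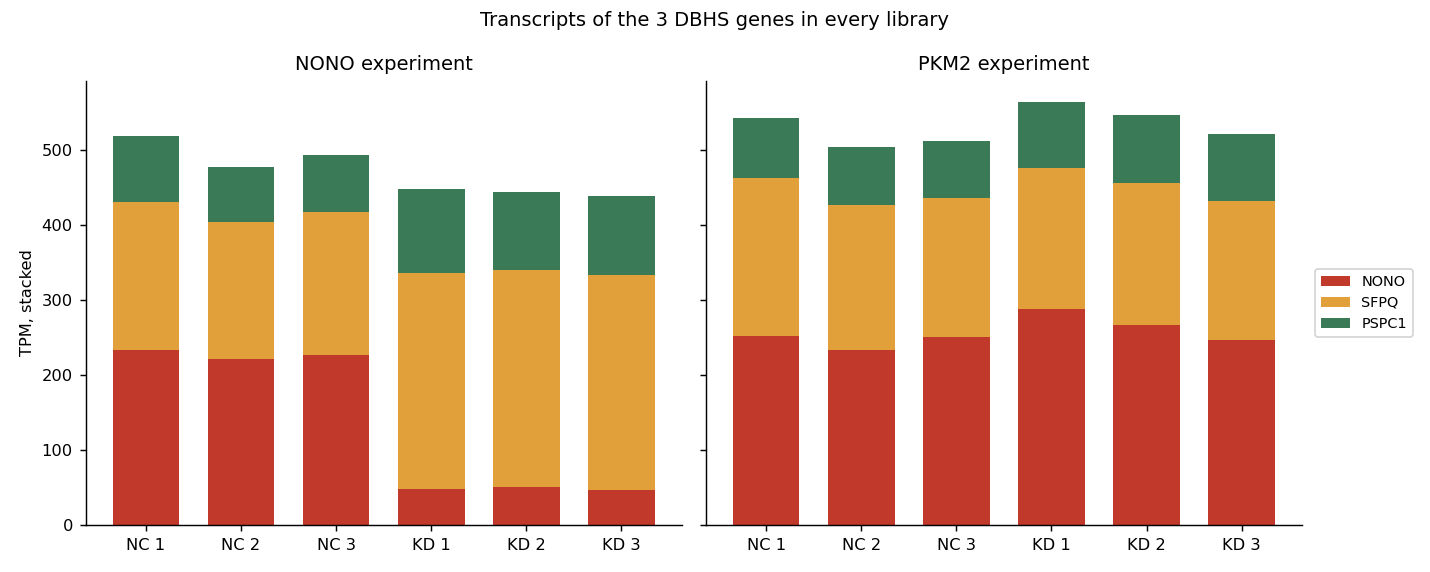
TPM of NONO (red), SFPQ (orange) and PSPC1 (green), stacked for each NC and knockdown (KD) library of the NONO experiment (left) and the PKM2 experiment (right). In the NONO experiment the red part shrinks from 227 to 48.5 TPM while the whole bar goes from a mean of 497 to 444 TPM, and in the PKM2 experiment the means of the whole bar are 520 and 544 TPM.

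In the PKM2 experiment, NONO and PSPC1 were higher in the knockdown cells and SFPQ showed no detectable change. NONO had 370, 352 and 368 CPM in NC and 443, 454 and 444 CPM in PKM2-KD libraries. The groups did not overlap, and NONO rose by 0.30 on the log2 scale (SE 0.044, adjusted P = 7.54e-05). PSPC1 had 120, 112 and 114 CPM in NC and 138, 148 and 154 CPM in PKM2-KD libraries, with a log2 fold change of 0.34 (SE 0.055, adjusted P = 0.000150). SFPQ had 335, 309 and 315 CPM in NC and 322, 335 and 338 CPM in PKM2-KD libraries, which overlapped (log2 fold change 0.05, SE 0.048, adjusted P = 0.348). The scale mattered for NONO, which was at 123% of NC by CPM and at 109% by TPM, and on log2(TPM + 1) its change was 0.12 with an adjusted P of 0.128 by limma. How the deposited TPM values of this experiment were obtained is not known, as given in the next paragraph, so its TPM sums and shares are uncertain. TPM of the 3 genes summed to 520 ± 20.8 in NC and 544 ± 21.2 in PKM2-KD cells (two-sided exact permutation P = 0.2). The family shares of NONO were 47.1% and 49.1%, those of SFPQ 37.9% and 34.5%, and those of PSPC1 15.0% and 16.4%, in NC and PKM2-KD cells respectively.

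The deposited values implied a shorter mix of transcripts for the reads left on NONO after its knockdown. This rests on the authors' count and TPM estimates, and read coverage along the gene was not examined. For each gene and library, the deposited count divided by the deposited TPM is proportional to the effective length, which is the mean length over which fragments of the gene's transcripts could start. The scale was set in each library of the NONO experiment on 31 to 35 genes with a single annotated transcript, all of which fell within 5% of their expected length. On this scale an effective length is 310 to 323 bases below the full length. The effective length of NONO was 2148, 2100 and 2138 bases in the NC libraries and 1597, 1601 and 1656 bases in the NONO-KD libraries. All knockdown libraries were shorter than all NC libraries, and the mean of 1618 ± 33.1 bases was 76.0% of the NC mean of 2129 ± 25.7 bases (two-sided exact permutation P = 0.1, the smallest possible). The annotated NONO transcripts range from 397 to 3215 bases in full length. TPM divides by the effective length and CPM does not, and the remaining share was 21.3% by TPM and 16.8% by CPM. For SFPQ the effective length was 2186 ± 156 bases in NC and 2202 ± 58.8 bases in NONO-KD cells, with overlapping libraries, and for PSPC1 it was 2027 ± 19.8 and 2093 ± 21.9 bases, without overlap (exact permutation P = 0.1). TARDBP also separated, at 1404 ± 22.2 bases in NC and 1372 ± 11 bases in NONO-KD cells (exact permutation P = 0.1). In the PKM2 experiment 15.4% to 55.3% of the calibrating genes fell within 5%, so no effective length is given there. The deposited TPM values there do not follow from count and length on 1 scale. How they were obtained is not known, which limits every TPM value given for the PKM2 experiment.

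NEAT1 moved in opposite directions after the knockdowns. NEAT1 (ENSG00000245532) lies at chr11:65422774-65445540 on the plus strand, with 8 annotated transcripts whose exons together cover 1 unbroken block. The 2 ends that matter for its isoforms are shown here from GENCODE 29, as the last 60 bases of a short transcript that stops 3716 bases into the long one and of the long transcript itself. Capitals mark the polyadenylation signal AATAAA, present once in the short end and absent from the last 60 bases of the long one.
Short transcript NEAT1-208, 2994 bases: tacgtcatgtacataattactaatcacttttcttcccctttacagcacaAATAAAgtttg
Long transcript NEAT1-202, 22743 bases: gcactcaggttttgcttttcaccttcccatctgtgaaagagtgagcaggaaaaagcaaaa
The signal begins 11 bases before the annotated end of the short transcript. NEAT1-208 is not contained in the long transcript as 1 unbroken stretch. The long isoform is known to end in a processed triple helix without a poly(A) tail, and the labels state that RNA was selected on oligo(dT), and how much of the long isoform these libraries captured was not measured.

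In the NONO experiment, NEAT1 had 409, 494 and 472 CPM in the NC libraries and 821, 700 and 709 CPM in the NONO-KD libraries. The groups were far apart, and the mean rose from 458 ± 44.3 to 743 ± 67.2 CPM, a log2 fold change of 0.70 (SE 0.075, adjusted P = 4.70e-05). In the PKM2 experiment, NEAT1 had 287, 402 and 321 CPM in NC and 287, 185 and 212 CPM in PKM2-KD libraries, and fell by 0.56 on the log2 scale (SE 0.15, adjusted P = 0.00498). Here the separation was marginal, since knockdown library 1 lay at the level of the lowest NC library, and the fall was 0.76 without that library and 0.51 without knockdown library 3. By TPM, NEAT1 went from 159 ± 19.9 to 262 ± 23.9 after knockdown of NONO and from 150 ± 25.2 to 93.4 ± 19.1 after knockdown of PKM2. The effective length of NEAT1 in the NONO experiment was 3762 ± 88.9 bases in NC and 3548 ± 42.8 bases in NONO-KD cells, without overlap (exact permutation P = 0.1). Both values lie above the full lengths of the 7 annotated short transcripts, the longest of which has 3524 bases. They lie far below the 22743 bases of the long one. Effective lengths run 310 to 323 bases below full lengths, so these are not the same measure.

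MALAT1, the noncoding RNA of nuclear speckles whose gene (ENSG00000251562, chr11:65497688-65506516, plus strand) neighbours NEAT1, did not pass the test in either experiment. It had 169, 211 and 215 CPM in NC and 190, 176 and 181 CPM in NONO-KD libraries, which overlapped (log2 fold change -0.12, SE 0.078, adjusted P = 0.265). In the PKM2 experiment it had 172, 175 and 185 CPM in NC and 174, 149 and 176 CPM in PKM2-KD libraries (-0.09, SE 0.065, adjusted P = 0.224). NC library 1 of the NONO experiment was the lowest, and without it the change after knockdown of NONO was -0.22 with an adjusted P of 0.000109. MALAT1 lacks a poly(A) tail, as does the long NEAT1 isoform, whereas the short NEAT1 isoform is polyadenylated. The ratio of NEAT1 to MALAT1 within a library is given as a description, since NEAT1 counts can come from either isoform. NEAT1 counts per MALAT1 count were 2.42, 2.34 and 2.19 in NC and 4.32, 3.97 and 3.92 in NONO-KD libraries, and 1.67, 2.30 and 1.73 in NC and 1.65, 1.24 and 1.21 in PKM2-KD libraries. The ratio was therefore higher in every NONO-KD library than in its NC libraries and lower in every PKM2-KD library (two-sided exact permutation P = 0.1 for each). In the PKM2 experiment the separation was marginal, since knockdown library 1 at 1.65 lay next to the lowest NC library at 1.67. The means there were 1.90 in NC and 1.37 in PKM2-KD libraries.

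CPSF6, the subunit of the cleavage factor that binds NUDT21, fell only in the PKM2 experiment. CPSF6 (ENSG00000111605, chr12:69239537-69274358, plus strand) had 115, 111 and 107 CPM in NC and 92.1, 87.7 and 92.2 CPM in PKM2-KD libraries. No library overlapped, and the log2 fold change was -0.29 (SE 0.051, adjusted P = 0.000263). In the deposited TPM the fall was larger, from 75.4 ± 2.16 to 52.4 ± 1.39, or to 69.6% of NC. How TPM was obtained in this experiment is not known, so the larger size is uncertain. In the NONO experiment it had 110, 102 and 101 CPM in NC and 103, 102 and 99.2 CPM in NONO-KD libraries (-0.04, SE 0.048, adjusted P = 0.572). The 2 changes differed in the interaction test, as given further on.

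RBM14, which is needed to assemble paraspeckles, did not pass the edgeR test in either experiment, although other settings called it. RBM14 (ENSG00000239306, chr11:66616582-66627347, plus strand) had 100, 76.6 and 87.9 CPM in NC and 103, 98.4 and 104 CPM in NONO-KD libraries (log2 fold change 0.21, SE 0.079, adjusted P = 0.0661), and NC library 1 alone overlapped the knockdown libraries. Without that library the change was 0.31 with an adjusted P of 7.11e-05, and without NC library 2 it was 0.12 with an adjusted P of 0.194. DESeq2 called it at 0.21 with an adjusted P of 0.0397, and edgeR without the filter on low counts with an adjusted P of 0.00182. In that last fit the change was again 0.21, and its SE was smaller, 0.057 against 0.079. It had 61.7, 58.6 and 55.2 CPM in NC and 58.1, 65.6 and 66.8 CPM in PKM2-KD libraries (0.12, SE 0.068, adjusted P = 0.142), and without knockdown library 1 the change was 0.19 with an adjusted P of 0.0288. RBM14 shares 432 exonic bases with the readthrough gene RBM14-RBM4, and its length is 2828 bases in the NONO table and 5367 bases in the PKM2 table, so its levels are not comparable across experiments. RBM14-RBM4 rose after knockdown of PKM2 from 8.45 ± 0.298 to 13.2 ± 1.34 CPM (0.64, adjusted P = 0.000168), and with both genes summed the change of RBM14 was 0.20 with an adjusted P of 0.0145.

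MATR3, an RNA-binding protein of the nuclear matrix that associates with SFPQ and NONO, was higher after knockdown of PKM2 under both of its identifiers. The identifiers share 5141 exonic bases, and how the authors' counting split reads between them is not known, so each is uncertain on its own. ENSG00000015479 (chr5:139293648-139331677, plus strand) had 207, 205 and 213 CPM in NC and 246, 248 and 241 CPM in PKM2-KD libraries (log2 fold change 0.23, SE 0.044, adjusted P = 0.000512). ENSG00000280987 (chr5:139273752-139331671, plus strand) had 124, 116 and 111 CPM in NC and 146, 136 and 157 CPM in PKM2-KD libraries (0.33, SE 0.063, adjusted P = 0.000661). Summed, they went from 325 ± 5.28 to 391 ± 6.86 CPM (0.27, adjusted P = 0.000151). By limma on log2(TPM + 1) the changes were smaller, at 0.12 (adjusted P = 0.0485) for ENSG00000015479 and 0.16 (adjusted P = 0.125) for ENSG00000280987, and the former had an adjusted P of 0.0536 with a pseudocount of 0.1 and 0.0649 without the TPM filter. After knockdown of NONO, ENSG00000015479 was at 0.08 on the log2 scale (adjusted P = 0.323), ENSG00000280987 at 0.29 (adjusted P = 0.124), and the sum went from 338 ± 21.8 to 369 ± 12.7 CPM (0.13, adjusted P = 0.0804). Without NC library 1, ENSG00000280987 was at 0.50 with an adjusted P of 1.98e-05, and without NC library 2 at 0.16 with an adjusted P of 0.349. By edgeR without the filter on low counts it was called at 0.30 (adjusted P = 4.64e-06). The SE was 0.058 in that fit and 0.14 with the filter, at nearly the same change. ENSG00000280987 starts upstream and shares 626 exonic bases with the small nucleolar RNA host gene SNHG4, which rose in NONO-KD cells (0.35, adjusted P = 0.00742) and fell in PKM2-KD cells by 1.21 on the log2 scale (adjusted P = 7.63e-06).

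TARDBP, which encodes the RNA-binding protein TDP-43, showed the smallest change among the members called in either experiment. TARDBP (ENSG00000120948, chr1:11012344-11026420, plus strand) had 195, 186 and 179 CPM in NC and 210, 205 and 214 CPM in PKM2-KD libraries (log2 fold change 0.17, SE 0.048, adjusted P = 0.00772). By TPM the levels were 151 ± 11.4 and 152 ± 14.5, and without NC library 3 the adjusted P was 0.0561. It had 226, 189 and 199 CPM in NC and 209, 212 and 215 CPM in NONO-KD libraries (0.05, SE 0.060, adjusted P = 0.561), and without NC library 1, the highest, the change was 0.14 with an adjusted P of 0.0039. A gene of the same strand, ENSG00000277726, shares 1760 exonic bases with TARDBP and was listed at 0 counts in every library of the NONO table but at 764 to 1071 counts in the PKM2 table. With both summed, the change after knockdown of PKM2 was 0.15 with an adjusted P of 0.0137.

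Across the members, 3 of 10 identifiers rose and 1, the targeted NONO itself, fell after knockdown of NONO at an edgeR adjusted P below 0.05. Of all 14832 genes tested, 16.2% rose and 17.2% fell by the same rule. After knockdown of PKM2, 5 of 10 rose and 2 fell, where 33.6% of 15524 genes rose and 34.7% fell, so the share called was near that of all genes. The 5 include both MATR3 identifiers, which share 5141 exonic bases and are not independent. The median log2 fold change over the 10 identifiers was 0.14 in both experiments, and over all genes it was -0.01 in both. Without NC library 1, 8 identifiers were called after knockdown of NONO, when 6249 of 15170 genes were called, against 4954 of 14832 with it. The study's methods instead set a fold change of more than 2 and a P below 0.05 without adjustment, and by that rule NONO in its own knockdown was the 1 member that passed, while 0 members passed after knockdown of PKM2 by edgeR, where 7 had an unadjusted P below 0.05. That cutoff took in 2.95% of all genes after knockdown of NONO and 20.8% after knockdown of PKM2.

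**Figure D3:**
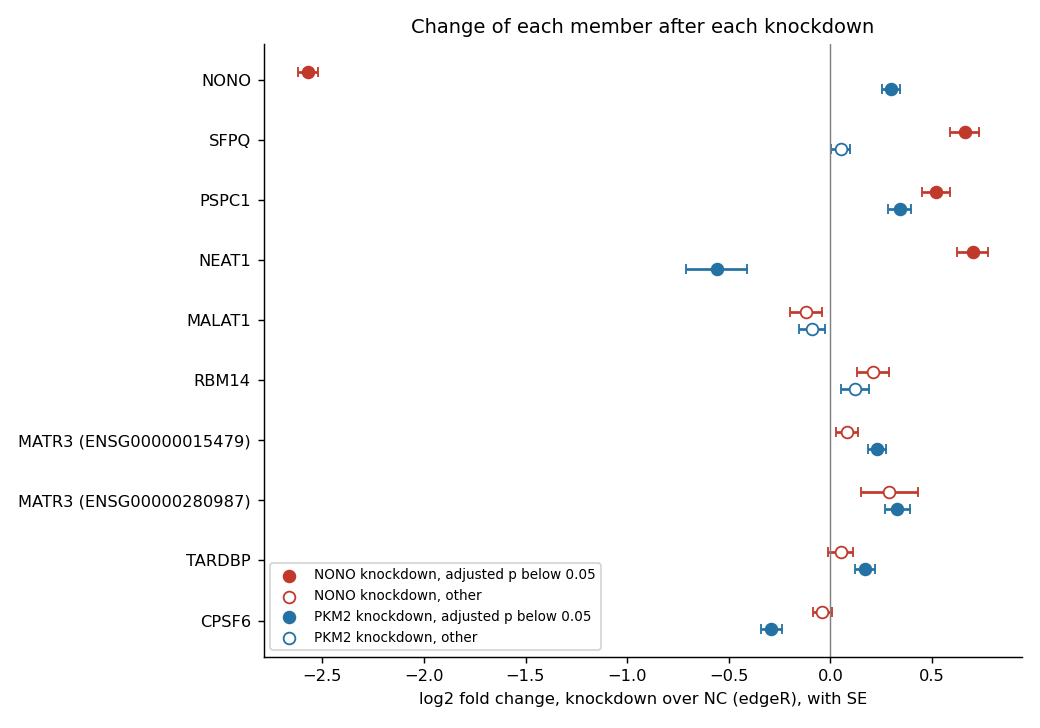
Log2 fold change of each identifier after knockdown of NONO (red) and of PKM2 (blue), with edgeR standard errors as bars, where filled points have an adjusted P below 0.05 and open points do not. NEAT1 lies at 0.70 and -0.56, on opposite sides of 0, and SFPQ at 0.66 and 0.05.

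The knockdowns were compared with each other in 1 fit over the 12 libraries, as the log2 fold change after knockdown of PKM2 minus that after knockdown of NONO. Of 10 identifiers, 4 differed at an adjusted P below 0.05, where 53.1% of all 15995 genes did. NONO itself, the target of 1 of the experiments, differed by 2.86 (SE 0.066, adjusted P = 6.22e-15). NEAT1 differed by -1.28 (SE 0.19, adjusted P = 2.01e-05), SFPQ by -0.62 (SE 0.093, adjusted P = 2.39e-05) and CPSF6 by -0.27 (SE 0.071, adjusted P = 0.00428). PSPC1 rose in both experiments, and its difference of -0.19 did not pass the test (SE 0.095, adjusted P = 0.0993). For MALAT1, RBM14, both MATR3 identifiers and TARDBP, the differences lay between -0.10 and 0.14 with adjusted P values from 0.111 to 0.940. The experiment is confounded with the sequencing depth and the annotation of its table, and these cannot be told apart from the target in this comparison, although each knockdown was set against its own NC group.

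By TPM, which allows levels of different genes to be set side by side within a table, NONO was the highest member in the NC cells of the NONO experiment at 227 ± 5.95. SFPQ (190 ± 7.46) and TARDBP (190 ± 17.9) followed and overlapped each other, then NEAT1 (159 ± 19.9) and MALAT1 (133 ± 19.5), which also overlapped, and MATR3 ENSG00000015479 (121 ± 3.74), which overlapped MALAT1. PSPC1 stood at 79.7 ± 8.01, and RBM14 (51.6 ± 6.76) and CPSF6 (47.9 ± 2.08) were the lowest genes and overlapped. After knockdown of NONO, SFPQ (288 ± 1.80) and NEAT1 (262 ± 23.9) were the highest, with overlapping libraries, and NONO (48.5 ± 1.5) had moved down to the level of CPSF6 (46.6 ± 0.839). In the PKM2 experiment the order began with NONO and SFPQ in both groups, whereas NEAT1 went from 150 ± 25.2 to 93.4 ± 19.1 TPM, below MATR3 ENSG00000015479 (107 ± 4.60), though their libraries overlapped. This order is uncertain, because how TPM was obtained there is not known.

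Promoters are shown for NONO, PSPC1 and TARDBP, because their windows hold GCCATTTT, a motif chosen after the windows had been read. RefSeq promoter windows of 300 bases, from 250 before the start to 50 after it, were matched for 7 of the 9 symbols, giving 9 windows, while SFPQ and NEAT1 were not matched. All motifs, searched on both strands, were chosen in that way. GCCATTTT, the core of a YY1 site, was present in the windows of NONO, PSPC1 and TARDBP, or 3 of 9, and in 1.82% of all 35116 windows. As it was chosen from these same windows, the 2 shares are no test of enrichment. It was in 0 of the windows of MATR3, which also rose after knockdown of PKM2. CCAAT was in 3 of 9 windows, with 3 copies in that of NONO, and in 34.6% of all. GCATGCGC, part of an NRF1 site, was in that of PSPC1, where overlapping matches on both strands form a run, and in 3.05% of all. The counts for GGGCGG were 4 of 9 against 45.0%, for TATAAA 1 of 9 against 11.5%, and for ATGCAAAT 0 of 9 against 1.77%. These matches describe the letters only and say nothing about binding, and a link to the changes in expression was not tested. Capitals mark GCCATTTT in all 3 windows, the CCAAT box of NONO (read ATTGG where it lies on the other strand) and the NRF1 run of PSPC1.
NONO promoter (GRCh38.p14, chrX:71283385-71283684, plus strand): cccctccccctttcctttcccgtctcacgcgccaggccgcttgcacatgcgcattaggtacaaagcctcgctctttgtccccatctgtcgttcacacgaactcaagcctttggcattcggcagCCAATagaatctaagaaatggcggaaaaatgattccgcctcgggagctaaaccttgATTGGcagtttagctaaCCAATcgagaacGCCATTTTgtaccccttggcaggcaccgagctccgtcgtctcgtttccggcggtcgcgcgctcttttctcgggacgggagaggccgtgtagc
PSPC1 promoter (GRCh38.p14, chr13:19782896-19783195, minus strand): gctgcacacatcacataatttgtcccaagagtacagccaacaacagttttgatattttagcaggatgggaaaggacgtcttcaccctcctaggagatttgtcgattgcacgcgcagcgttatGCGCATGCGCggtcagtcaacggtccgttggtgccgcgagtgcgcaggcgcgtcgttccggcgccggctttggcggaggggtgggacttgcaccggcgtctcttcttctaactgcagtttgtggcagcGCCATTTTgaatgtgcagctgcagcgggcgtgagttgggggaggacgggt
TARDBP promoter (GRCh38.p14, chr1:11012404-11012703, plus strand): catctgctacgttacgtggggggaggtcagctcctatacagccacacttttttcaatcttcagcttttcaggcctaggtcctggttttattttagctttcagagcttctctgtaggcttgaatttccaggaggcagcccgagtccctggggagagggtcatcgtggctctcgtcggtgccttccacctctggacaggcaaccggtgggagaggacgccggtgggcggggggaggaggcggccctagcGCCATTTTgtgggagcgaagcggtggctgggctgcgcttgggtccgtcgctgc

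The genes whose profile over the 12 libraries was nearest to each of 3 members were found by the root mean square difference of log2(CPM + 1), set relative to the NC mean of each experiment, among 14525 genes. For NEAT1 the nearest was the transcription factor gene KLF6 at 0.0945, which changed by 0.73 after knockdown of NONO and by -0.50 after knockdown of PKM2, followed by the nuclear receptor corepressor gene NRIP1 at 0.148 (0.69 and -0.44) and NFYC-AS1 at 0.155 (1.31 and -1.11). For SFPQ they were RPUSD1 at 0.0572, SPINDOC at 0.0885 and POP1, a subunit of RNase P, at 0.0891. For PSPC1 they were DDRGK1 at 0.0654, the decapping enhancer gene EDC3 at 0.0655 and PTMA at 0.0719. These are descriptions of likeness, without a test. By edgeR, NFYC-AS1 changed more than NEAT1 itself (0.70 and -0.56), so its nearness depends on the log2(CPM + 1) scale.

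Among 29 other paraspeckle proteins, 9 rose, 3 fell and 17 did not pass after knockdown of NONO, with a median log2 fold change of 0.07, where 16.2% of all genes rose and 17.2% fell. RBM7, a subunit of the nuclear exosome targeting complex, rose from 34.7 ± 1.99 to 49.9 ± 2.66 CPM (0.52). NUDT21, the RNA-binding subunit of the cleavage factor that contains CPSF6, fell from 436 ± 15.7 to 304 ± 8.11 CPM (-0.52), and AHDC1 fell by 0.39 on the log2 scale. The fall of NUDT21 was smaller by TPM, from 217 to 197 on average. After knockdown of PKM2, 16 rose, 9 fell and 4 did not pass, with a median of 0.17, where 33.6% of all genes rose and 34.7% fell. DAZAP1 rose from 199 ± 6.24 to 371 ± 7.18 CPM (0.90) and AKAP8L from 66.4 ± 0.823 to 129 ± 11.1 CPM (0.96), while RBM12 fell from 83.0 ± 2.81 to 48.1 ± 4.19 CPM (-0.79). The changes of 18 of the 29 differed between the knockdowns, where 53.1% of all genes did.

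The cleavage and polyadenylation factors, a list of 18 genes, act at the step that sets the NEAT1 isoform, and NUDT21 and CPSF7 belong to both lists. After knockdown of NONO, 8 rose, 3 fell and 7 did not pass, with a median of 0.10, beside the same 16.2% and 17.2% of all genes. The count of 11 called changed with single libraries left out, and so did the count over all genes, 4954 of 14832 with every library. It was 4 without knockdown library 2, when 3554 of 15149 genes were called. It was 6 without NC library 3 (3928 of 15081 genes) or knockdown library 1 (3847 of 15129). It was 7 without NC library 2 (4207 of 15098) or knockdown library 3 (3558 of 15171), and 12 without NC library 1 (6249 of 15170). NUDT21 fell as given above, CPSF4 changed by -0.41, and CPSF7, the alternative large subunit beside CPSF6, rose from 119 ± 7.61 to 142 ± 3.38 CPM (0.26). After knockdown of PKM2, 9 rose, 2 fell and 7 did not pass, with a median of 0.16, beside 33.6% and 34.7% of all genes. CPSF3, the endonuclease that cuts the transcript, rose from 48.0 ± 1.32 to 89.9 ± 1.90 CPM (0.91), and CSTF2 rose from 58.7 ± 1.95 to 87.2 ± 1.75 CPM (0.57). WDR33, which binds the AATAAA signal, fell from 97.1 ± 0.691 to 65.9 ± 0.550 CPM (-0.56). By mean TPM the fall of WDR33 was smaller, from 19.4 to 17.3, while CPSF3 went from 33.7 to 57 and CSTF2 from 31.2 to 41.6. NUDT21 fell there too, from 396 ± 1.90 to 289 ± 9.32 CPM (-0.46) and from 213 to 141 TPM, beside the fall of CPSF6.

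Nuclear speckle proteins, which make up the body that holds MALAT1, were represented by 9 genes. After knockdown of NONO, 2 fell, PNN (-0.37) and SRRM1 (-0.12), and 7 did not pass, and the median was -0.02, where 16.2% of all genes rose and 17.2% fell. Without NC library 1, 4 rose and 1 fell, when 6249 of 15170 genes were called. Without any other single library of that experiment 1 or 2 were called, each time lower, when 3554 to 4207 of all genes were called. After knockdown of PKM2, 3 fell, 1 rose and 5 did not pass, with a median of -0.05, where 33.6% of all genes rose and 34.7% fell. The scaffold gene SRRM2 fell from 631 ± 20.4 to 127 ± 12 CPM (-2.32) and SRRM1 from 126 ± 5.43 to 60.4 ± 1.43 CPM (-1.06), while PNISR rose from 76.1 ± 1.45 to 96.2 ± 3.41 CPM (0.34).

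RNAs without a poly(A) tail were taken as a measure of how much untailed RNA passed the selection. Of 9 listed, 4 were tested in the NONO experiment, with a median of -0.38. There edgeR and DESeq2 called 0, and 1 had an unadjusted P below 0.05 in edgeR. By edgeR, 16.2% of all genes rose there and 17.2% fell. In the PKM2 experiment 6 were tested, with a median of -0.43, and 1 was called, where 33.6% of all genes rose and 34.7% fell. It was TERC, the telomerase RNA, which fell from 2.60 ± 0.613 to 0.621 ± 0.0584 CPM (-2.06). Without knockdown library 3 of the PKM2 experiment, 4 were called, when 10863 of 15912 genes were called. Their part in the values of NEAT1 and MALAT1 was not tested.

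**Figure D4:**
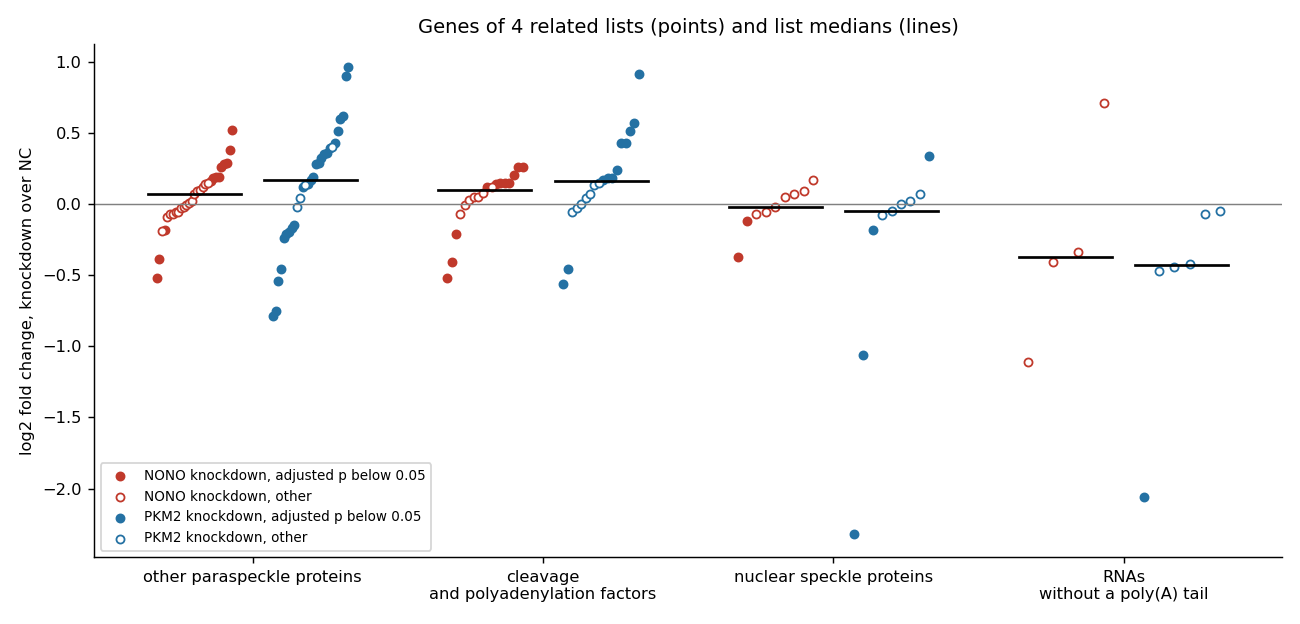
Log2 fold change of each tested gene of 4 lists after knockdown of NONO (red) and PKM2 (blue), sorted within each list, with filled points for an adjusted P below 0.05 and a line at each list's median. Most paraspeckle and cleavage genes lie within 0.5 of 0 after knockdown of NONO, and SRRM2 at -2.32 and TERC at -2.06 lie lowest after knockdown of PKM2.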

How the data were processed

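RNA-seq libraries of MDA-MB-231 cells were grouped by their sample titles. The submitters' processing notes name fastp, HISAT2, StringTie, RSEM, DESeq2, edgeR and limma and the build hg19, without roles or versions, and 58993 of the 60558 identifiers in both have equal lengths, so the annotation behind each table is uncertain and levels were compared within a table. Each deposited table gives, for every gene and library, the authors' estimated count, which need not be whole, and the authors' TPM value. The authors' deposited fold change (ratio), log2 fold change, p-value and adjusted p-value columns, and their mean TPM per group, were not used. No per-library column was set aside (0). Whether reads were counted by strand is not given in the sources used here.

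Estimated counts were rounded and tested per experiment with edgeR 4.0.16 (R 4.3.3, quasi-likelihood test, TMM, filterByExpr), with Benjamini-Hochberg adjustment over all genes tested. The difference between the knockdowns was an interaction in 1 fit over 12 libraries. Standard errors came from the F statistic. Other settings tried were relative log expression factors, DESeq2 1.42.0, no filter, limma 3.58.1 on log2(TPM + 1) where the mean TPM reached 1, a pseudocount of 0.1, no TPM filter, a replicate block, the fold change cutoff of 2, removal of the trend over 20 length bins, and each library left out. Sums of genes that share exons were added after seeing the data. The fits were tested on simulated data.

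Members and gene lists were chosen with earlier results of these data known. Named genes were all members and, from each list, the 3 called genes with the largest change per experiment, with genes that share reads at a mean count of at least 10. ENSG00000277726 was added after its values were seen. Locations, exon overlap and transcript ends came from GENCODE 29 (GRCh38), and promoters from RefSeq (GRCh38.p14). Replicate libraries differed by 2.38 to 13.4 in chi-square per degree of freedom, more than counting noise in every pair.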

Additional observations from a re-analysis of the deposited data

Results flagged for a closer look

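The changes after the 2 knockdowns differed for 4 members in the interaction test of edgeR, given as the log2 fold change after knockdown of PKM2 minus that after knockdown of NONO. NONO, the target of 1 of the experiments, differed by 2.86. NEAT1 differed by -1.28, with a rise in the 3 NONO-KD libraries and a fall in the PKM2-KD libraries, where 1 library lay at the level of the lowest NC library. SFPQ differed by -0.62, with a rise after knockdown of NONO and overlapping groups after knockdown of PKM2. CPSF6 differed by -0.27, with overlapping groups after knockdown of NONO and a fall in the 3 PKM2-KD libraries. No group had enough libraries for a test of single outlying libraries.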

How the results depend on the processing

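The directions and calls of NONO, SFPQ, PSPC1 and NEAT1 after knockdown of NONO, of PSPC1, NEAT1 and CPSF6 after knockdown of PKM2, and the 4 differences between the knockdowns held under the alternatives run, apart from the fold change cutoff. NEAT1 ranged from 0.62 to 0.76 after knockdown of NONO and from -0.76 to -0.42 after knockdown of PKM2. With single libraries left out, members called numbered 4 to 8 after knockdown of NONO, 6 to 8 after knockdown of PKM2 and 4 to 5 for the difference. All genes called numbered 3554 to 6249, 9891 to 10863 and 7969 to 8526 in the same order. The 8 arose without NC library 1 of the NONO experiment, when MALAT1 (-0.22), RBM14 (0.31), MATR3 ENSG00000280987 (0.50) and TARDBP (0.14) were also called and CPSF6, between -0.06 and 0.01 over single libraries left out, was at 0.01. DESeq2 called 5 after knockdown of NONO, RBM14 being added, when it called 4360 of 14832 genes. With no low-count filter, edgeR called 6, with RBM14 and MATR3 ENSG00000280987 added, when it called 5302 of 27360 genes. The 8 after knockdown of PKM2 arose without knockdown library 1, when RBM14 was added and 10323 of 15964 genes were called against 10614 of 15524. Under limma on TPM, members called after knockdown of PKM2 numbered 4, when 8387 of 14026 genes were called. They numbered 3 with the smaller pseudocount (8401 of 14026 genes) or no filter (8312 of 29763 genes). In these fits NONO was at 0.12, MATR3 at 0.12 and 0.16, TARDBP at 0.01, SFPQ at -0.07 and RBM14 at -0.02. The cause was not tested. The fold change cutoff left 1, 0 and 2 members, beside 2.95% and 20.8% of all genes after knockdown of NONO and of PKM2. In the difference, TPM put MALAT1 at -0.13, MATR3 ENSG00000280987 at -0.01 or -0.02 and TARDBP at -0.02, and with single libraries left out MALAT1 ranged from -0.03 to 0.13, RBM14 from -0.19 to 0.01 and MATR3 ENSG00000280987 from -0.17 to 0.18, 0.00 included, none of them called. PSPC1 was called at -0.27 without NC library 1 of the NONO experiment and MATR3 ENSG00000015479 at 0.21 without its knockdown library 3. With the trend over gene length removed, after knockdown of PKM2 NEAT1 was at -0.45, MALAT1 at 0.03 and MATR3 ENSG00000015479 at 0.33.

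After knockdown of NONO, list counts changed with single libraries left out. All genes called there ranged from 3554 to 6249, against 4954 with every library. Cleavage factors called numbered 4 to 12 against 11, speckle proteins 1 to 5 against 2, and untailed RNAs 0 to 2 against 0, and after knockdown of PKM2 untailed RNAs numbered 1 to 4 against 1. The lowest cleavage count was without knockdown library 2, and the highest speckle count without NC library 1. DESeq2 called 1 speckle protein after knockdown of NONO, when it called 4360 of 14832 genes. Libraries with the same number in NC and knockdown groups had correlations of their deviations from -0.12 to 0.05. Those with different numbers had -0.14 to 0.16, so no shared effect of the number was seen. Whether the libraries were paired cannot be told from this. With a replicate block, 7 cleavage factors and 1 speckle protein were called after knockdown of NONO, RBM14 was called (0.21, adjusted P = 0.0379), and all genes called numbered 4351 against 4954.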
